A study of Homo sapiens with 12 samples.

Results

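RGS13 and 8 other genes of the regulator of G-protein signalling (RGS) family were followed across the 6 conditions of an RNA sequencing experiment on diffuse large B-cell lymphoma (DLBCL) cells. The members were RGS1, RGS2, RGS3, RGS10, RGS13, RGS14, RGS16, RGS18 and RGS19, which are 9 of the 58884 genes in the count table. They are a part of the family, chosen by name with earlier results of these data known. RGS13 was selected on its measured increase over the isotype control in U2932. The changes of the members against isotype in U2932 are therefore given as a description with no test. U2932 and TMD8 are established DLBCL cell lines, whose genotype the submitters labelled as WT. The 2 lines were treated with rituximab (R), ofatumumab (OF) or a human IgG1 isotype control at 20 µg/mL for 4 h. R and OF are antibodies that bind different epitopes of CD20 on B cells. Each condition had 2 libraries, one from each of 2 cultures of the line that were kept apart for a week. Unless stated otherwise, p-values therefore measure the spread between cultures of 1 line.

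RGS proteins switch off signals that reach the cell through G-protein-coupled receptors, such as the chemokine and lipid receptors that position B cells. A receptor bound by its ligand loads the G-protein alpha subunit with GTP, which separates it from the beta and gamma subunits, and the RGS domain speeds the hydrolysis of that GTP so that the complex closes again. RGS1, RGS2, RGS13, RGS16 and RGS18 belong to the group of small members that consist of little beyond the RGS domain, RGS3 is a longer relative of the same group, RGS10 and RGS14 form another group, and RGS19 a further one. RGS1 and RGS13 are known from B cells of the germinal centre, where they restrain responses to chemokines.

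The libraries held 15440226 to 27110612 counts. Levels are given as CPM, which are counts scaled to a common library total, after TMM normalization over the 12 libraries, and a change is a log2 fold change from edgeR with its standard error (SE), fitted within a line. A gene was called at a Benjamini-Hochberg adjusted p under 0.10 and at least 1.5-fold, or under 0.30 for R versus OF in U2932. Of the B-cell markers, CD79A, MS4A1, PAX5, CD22 and CD79B were at 43.8 CPM or more in each library. Of the activated B-cell markers, IRF4 was at 361 CPM or more and FOXP1 at 53.5 CPM or more in each library, and CCND2 was at 0 to 0.0895 CPM in U2932 against 146.7 CPM or more in TMD8. Of the germinal centre markers, MME, MYBL1 and BCL6 were at 52.3 CPM or more in U2932, against 0 to 0.325, 5.94 to 9.16 and 21.3 to 36.9 CPM in TMD8, while LMO2 was at 9.04 to 13.9 CPM in U2932 and at 72.2 to 134.6 CPM in TMD8. The T-cell markers CD3E, CD3D and CD2 and the myeloid markers CD14, LYZ and CSF1R did not exceed 0.954 CPM in any library, and of the epithelial markers KRT18 did not exceed 0.131 CPM, while EPCAM was at 28.6 to 37.3 CPM in U2932. In TMD8, OF library 2 and isotype library 2 stood apart, with 7.16% and 6.50% of their counts on ribosomal protein genes against 10.0% to 10.8% in the other TMD8 libraries, and the part of this in the results was not tested.

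RGS13 had the largest change of the 9 genes in TMD8 and in U2932, where it was selected for its increase. In U2932 it was at 116 and 131 CPM with isotype, 404 and 447 CPM with R, and 376 and 394 CPM with OF. In TMD8 it was at 31.5 and 23.1 CPM with isotype, 182 and 151 CPM with R, and 171 and 115 CPM with OF. The anti-CD20 libraries lay above the isotype libraries in both lines without overlap. In U2932, where RGS13 was selected, the change was 1.78 (SE 0.0901) on the log2 scale with R, a 3.44-fold difference, and 1.64 (SE 0.0899) with OF, a 3.12-fold difference. Among the 14635 genes tested in U2932 these changes ranked 16 and 35 from the top. Because RGS13 was selected on this increase, nothing is read from these ranks. In TMD8, RGS13 rose 6.14-fold with R (log2 fold change 2.62, SE 0.275, adjusted p = 0.0697) and 5.25-fold with OF (2.39, SE 0.273, adjusted p = 0.0851). Among the 14227 genes tested in TMD8, these changes ranked 2 and 5. With the 2 cultures taken apart, the log2 difference of RGS13 from isotype in TMD8 was 2.52 and 2.71 with R, and 2.43 and 2.31 with OF. The call with R was lost without R library 1 (adjusted p = 0.894) or R library 2 (adjusted p = 0.647). The call with OF was lost without OF library 1 (adjusted p = 0.236), OF library 2 (0.175), R library 1 (0.375) or R library 2 (0.376). In each of these fits 0 genes were called in the same comparison, so the loss is not particular to RGS13. The log2 fold change of RGS13 in these fits and in those without either isotype library lay between 2.07 and 2.88. Over the 6 conditions the level of RGS13 fell in the order U2932 with R, U2932 with OF, TMD8 with R, TMD8 with OF, U2932 with isotype and TMD8 with isotype. In that order, the libraries of TMD8 with R and with OF overlapped, as did those of TMD8 with OF and U2932 with isotype, and the other neighbours did not.

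**Figure D1:**
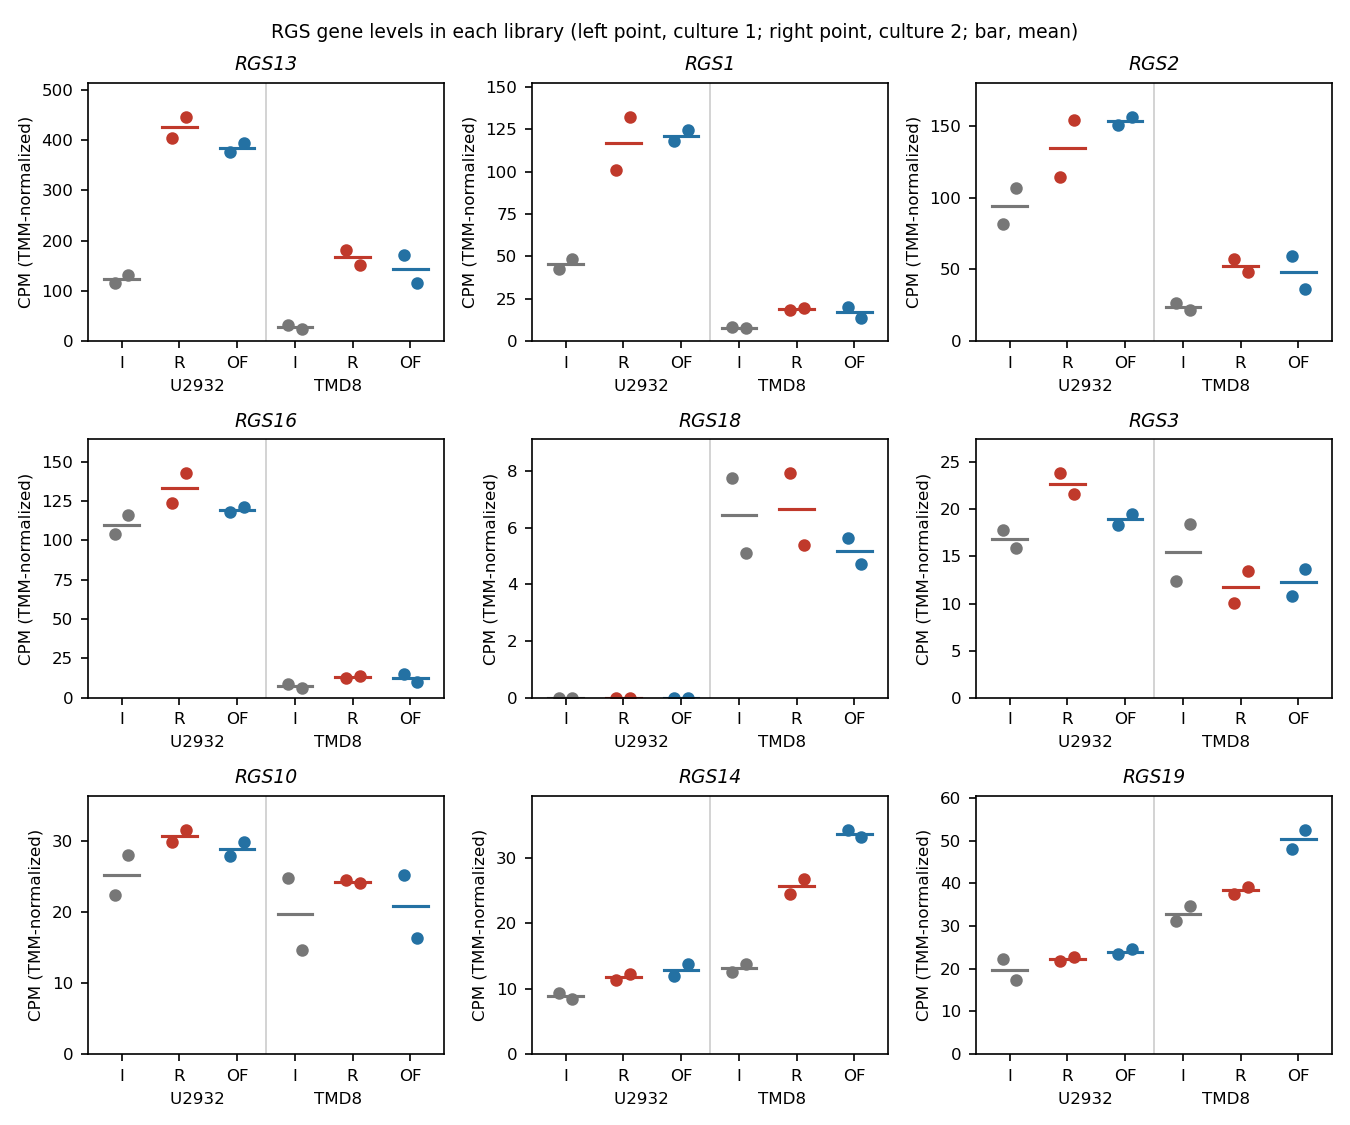
TMM-normalized CPM (linear axis from 0) of the 9 RGS genes in the 12 libraries, by line and antibody (I, isotype), with a point for each culture and a bar at the mean of 2. RGS13 went from 116 and 131 CPM with isotype to 376 to 447 CPM with R and OF in U2932, and from 23.1 and 31.5 to 115 to 182 CPM in TMD8.

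RGS1 lies next to RGS13 on chromosome 1 and also restrains chemokine receptor signalling in B cells. It was at 42.4 and 48.5 CPM with isotype in U2932, at 101 and 133 CPM with R, and at 118 and 124 CPM with OF. The TMD8 libraries held 8.34 and 7.46 CPM with isotype, 18.4 and 19.3 CPM with R, and 20.0 and 13.9 CPM with OF. The isotype libraries were the lowest in each line, and the R and OF libraries overlapped. In U2932 the log2 change was 1.36 (SE 0.111) with R and 1.42 (SE 0.111) with OF. In TMD8 it was 1.27 (SE 0.228, adjusted p = 0.103) for R and 1.11 (SE 0.228, adjusted p = 0.126) for OF, which missed the limit of 0.10.

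RGS2, which acts mainly on alpha subunits of the Gq class, lies on the other side of RGS13. In U2932 it was at 81.4 and 107 CPM with isotype, 114 and 155 CPM with R, and 151 and 157 CPM with OF. The TMD8 values were 26.2 and 21.8 CPM with isotype, 57.2 and 47.9 CPM with R, and 59.2 and 36.6 CPM with OF. The anti-CD20 libraries were again above the isotype libraries in both lines, by a narrow gap in U2932 with R. The log2 change was 0.51 (SE 0.119) with R and 0.71 (SE 0.119) with OF in U2932, and 1.14 (SE 0.264, adjusted p = 0.136) and 1.01 (SE 0.263, adjusted p = 0.170) in TMD8.

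These 3 genes lie within 1 Mb of each other at chr1:192575727-192812283, all on the plus strand. Measured from the start of RGS13 (chr1:192636138-192660306), RGS1 (chr1:192575727-192580031) starts at -60.4 kb and RGS2 (chr1:192809039-192812283) at 172.9 kb. RGS18 starts at -477.7 kb, and RGS21, a further RGS gene at -319.1 kb, had 0 counts in the 12 libraries. The promoters of the 3 genes are shown because they sit side by side and were the genes of this stretch that were called with an anti-CD20 antibody in at least 1 fit. Each is 300 bases from RefSeq on GRCh38.p14, plus strand, from 250 bases before the start to 50 after it, at chr1:192575523-192575822 for RGS1, chr1:192635897-192636196 for RGS13 and chr1:192808789-192809088 for RGS2. Capitals mark matches to a motif searched on both strands.
RGS1: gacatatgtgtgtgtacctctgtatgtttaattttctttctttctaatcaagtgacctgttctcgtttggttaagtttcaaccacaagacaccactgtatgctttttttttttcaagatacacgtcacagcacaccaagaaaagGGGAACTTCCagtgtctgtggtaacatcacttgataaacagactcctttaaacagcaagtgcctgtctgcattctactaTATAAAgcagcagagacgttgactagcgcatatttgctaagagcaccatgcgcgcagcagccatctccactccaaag
RGS13: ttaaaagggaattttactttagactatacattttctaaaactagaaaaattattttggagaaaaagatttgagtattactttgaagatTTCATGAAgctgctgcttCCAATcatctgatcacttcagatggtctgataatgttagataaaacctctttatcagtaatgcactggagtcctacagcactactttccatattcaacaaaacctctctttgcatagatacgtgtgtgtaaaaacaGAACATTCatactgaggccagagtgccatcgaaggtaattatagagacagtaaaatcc
RGS2: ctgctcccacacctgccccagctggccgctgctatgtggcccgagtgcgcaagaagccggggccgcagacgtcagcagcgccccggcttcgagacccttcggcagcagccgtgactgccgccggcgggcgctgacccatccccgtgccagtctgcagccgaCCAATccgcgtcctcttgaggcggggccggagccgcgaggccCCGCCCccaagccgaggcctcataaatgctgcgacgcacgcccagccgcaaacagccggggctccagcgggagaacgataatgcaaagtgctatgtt

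The promoters differed in base composition, with 33.7% G and C in RGS13, 41.7% in RGS1 and 69.7% in RGS2, against a median of 58.7% over 35116 RefSeq promoters of the same length. RGS13 held TTCNNGAA and GAANNTTC, both paired forms of the heat shock element, with first bases at -162 and -8 from the start, and CCAAT at -144. These are found in 7.74%, 6.77% and 34.6% of the promoters. RGS1 held the TATA box TATAAA, found in 11.5% of them, at -27, and GGGAACTTCC, a match to the usual consensus of the NF-kB site, at -106. The NF-kB consensus is found in 11.3% of the promoters. RGS2 held CCAAT at -89 and the GC box GGGCGG, in reverse as CCGCCC, at -47, and the GC box is found in 45.0% of the promoters. The cAMP response element TGACGTCA (1.85% of the promoters) and the AP-1 site TGANTCA (7.71%) had no match in the 3 windows. The motifs were chosen with the results of these data known, and the NF-kB consensus was taken after these sequences were seen, in place of a narrower form that had no match in the 3 windows. The heat shock pairs TTCNNGAA and GAANNTTC are different 8-letter words and a longer element can hold both.

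Of 26 annotated genes within 1 Mb of the RGS13 start, 8 passed the filter in U2932 and 9 in TMD8. Outside the RGS genes, the 5 that passed were RO60, UCHL5, GLRX2, CDC73 and the long noncoding RNA ENSG00000285280. With either antibody in either line, edgeR and DESeq2 called 0 of these 5. In U2932, 2 were at an unadjusted p under 0.05 with each antibody, and in TMD8 0 were. Of all genes tested, edgeR called 5.19% higher and 5.02% lower with R in U2932, and 5.90% and 5.21% with OF. In TMD8 these shares were 0.401% and 0.246% with R, and 0.471% and 0.344% with OF. The log2 changes of these 5 ran from -0.44 to 0.10 with R and from -0.50 to 0.06 with OF in U2932, and from -0.42 to 0.35 and from -0.77 to 0.11 in TMD8. CDC73, a subunit of a transcription elongation complex 485.7 kb after RGS13, had the lowest change in U2932, at -0.44 (SE 0.0914) with R and -0.50 (SE 0.0917) with OF. RO60 also fell in U2932, at -0.38 (SE 0.0995) with R and -0.39 (SE 0.0997) with OF. The changes of RO60 and CDC73 were under the 1.5-fold limit that a call required. ENSG00000285280 runs on the minus strand across RGS1, RGS13, RGS2 and part of RGS18, and whether the counts used the strand is not given in the sources used here. It had 35 to 46 counts in U2932 libraries and 13 to 43 in TMD8, against 2595 to 8434 and 552 to 2794 for RGS13.

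**Figure D2:**
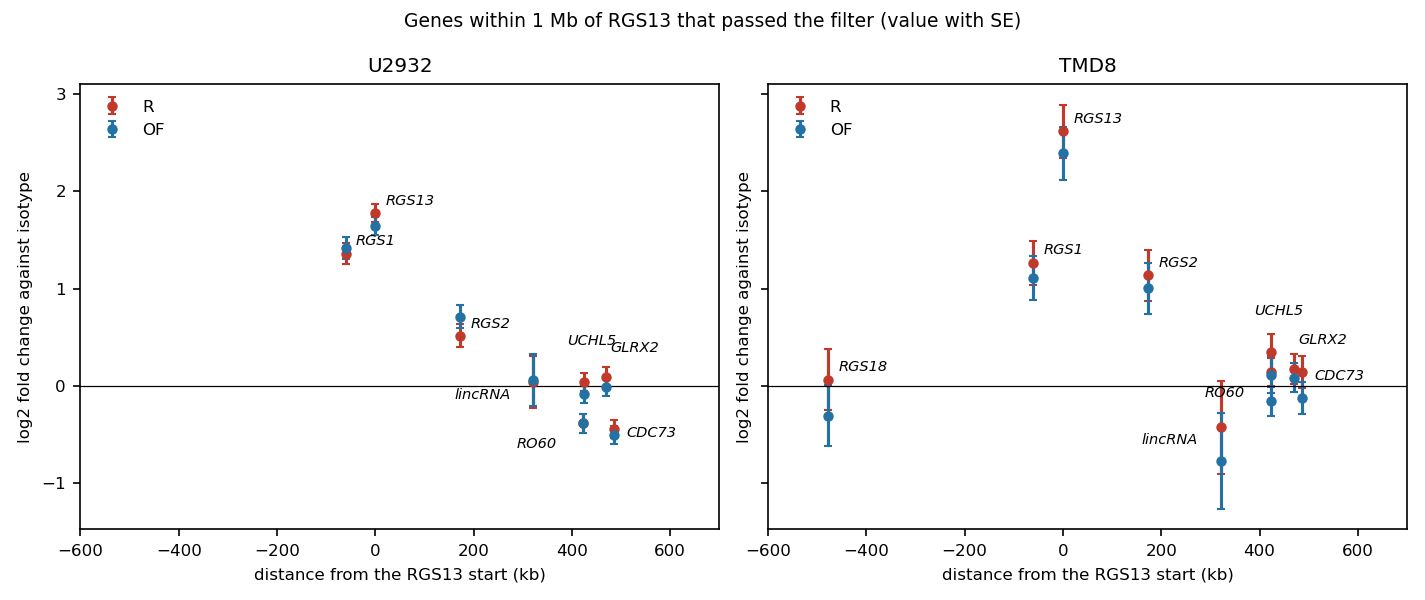
Log2 fold change against isotype with its SE for the genes within 1 Mb of RGS13 that passed the filter, by distance in kb from the RGS13 start to the gene's own start, in U2932 (left) and TMD8 (right), with R in red and OF in blue. RGS1, RGS13 and RGS2 stand above 0.5 in both panels, and the other genes lie between -0.77 and 0.35.

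RGS14 carries a second G-protein binding motif beside its RGS domain, which holds alpha subunits of the Gi class in the GDP form. In TMD8 it was at 12.5 and 13.7 CPM with isotype, 24.5 and 26.8 CPM with R, and 34.3 and 33.1 CPM with OF. The libraries of the 3 antibodies did not overlap, with the highest values for OF. The difference between R and OF was not called by edgeR (adjusted p = 0.733) and shrank with the GC content trend removed. RGS14 rose by 0.97 on the log2 scale with R (SE 0.155, adjusted p = 0.0950) and by 1.37 with OF (SE 0.155, adjusted p = 0.0851). Without 1 library, the adjusted p with R was 0.087 without isotype library 1 and 0.109 to 0.894 without any other library, and with OF it was 0.0454 without isotype library 2 and 0.121 to 0.376 without any other. With library sizes from total counts alone it was 0.132 with R and 0.101 with OF. In U2932 RGS14 was at 9.40 and 8.46 CPM with isotype, 11.3 and 12.2 CPM with R, and 11.97 and 13.8 CPM with OF, a log2 change of 0.40 (SE 0.142) and 0.53 (SE 0.141).

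RGS16, a small member induced in activated lymphocytes, was at 104 and 116 CPM with isotype in U2932, 124 and 143 CPM with R, and 118 and 121 CPM with OF. The log2 change there was 0.28 (SE 0.0944) with R and 0.12 (SE 0.0947) with OF. TMD8 had 8.57 and 6.32 CPM of RGS16 with isotype, 12.4 and 14.0 CPM with R, and 15.2 and 9.74 CPM with OF. The isotype libraries lay below the others, and the log2 change of 0.84 (SE 0.283, adjusted p = 0.233) for R and 0.75 (SE 0.284, adjusted p = 0.310) for OF was not called.

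RGS19, which acts on the Gi class, was at 31.2 and 34.6 CPM with isotype in TMD8, 37.6 and 39.2 CPM with R, and 48.1 and 52.6 CPM with OF. Its log2 change was 0.23 (SE 0.148, adjusted p = 0.489) for R and 0.62 (SE 0.148, adjusted p = 0.154) for OF. U2932 libraries held 22.2 and 17.3 CPM with isotype, 21.7 and 22.7 CPM with R, and 23.4 and 24.5 CPM with OF, and the R and isotype libraries overlapped.

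RGS3, the longest member, was at 17.8 and 16.0 CPM with isotype in U2932, 23.9 and 21.6 CPM with R, and 18.4 and 19.5 CPM with OF. The level in TMD8 was 12.4 and 18.5 CPM with isotype, 10.0 and 13.5 CPM with R, and 10.9 and 13.7 CPM with OF. The isotype libraries of TMD8 overlapped in range with those of R and of OF, and the log2 change of -0.39 (SE 0.263, adjusted p = 0.513) for R and -0.33 (SE 0.263, adjusted p = 0.637) for OF was not called. In U2932 the change was 0.43 (SE 0.118) with R and 0.17 (SE 0.121) with OF.

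RGS10, a small member of the group of RGS14, was at 22.4 and 28.1 CPM with isotype in U2932, 29.9 and 31.7 CPM with R, and 28.0 and 29.9 CPM with OF. In TMD8 the values were 24.8 and 14.7 CPM with isotype, 24.5 and 24.2 CPM with R, and 25.3 and 16.4 CPM with OF. The low values in TMD8 were those of OF library 2 and isotype library 2, and the log2 change was 0.31 (SE 0.310, adjusted p = 0.664) for R and 0.09 (SE 0.311, adjusted p = 0.936) for OF. RGS18, a member known from platelets, had 0 counts in the 6 U2932 libraries. In TMD8 it was at 7.77 and 5.11 CPM with isotype, 7.94 and 5.41 CPM with R, and 5.63 and 4.71 CPM with OF, and its log2 change was 0.07 (SE 0.312, adjusted p = 0.937) for R and -0.30 (SE 0.317, adjusted p = 0.731) for OF.

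Counted together, 8 of the 9 members passed the filter in U2932. RGS1 and RGS13 were called higher with R, beside 5.19% of all genes tested, and RGS1, RGS2 and RGS13 with OF, beside 5.90%. The choice of RGS13 used these comparisons, so nothing is read from the counts. In TMD8 the 9 members passed the filter, and RGS13 and RGS14 were called higher with R, beside 0.401% of all genes, and with OF, beside 0.471%. The 9 members had a median log2 change of 0.84 with R and 0.75 with OF in TMD8, against -0.0244 and -0.00582 over all genes tested. These 9 were chosen with earlier results of these data known and do not stand for the whole family. Among 21 other RGS-domain genes, the 12 that passed the filter in TMD8 had medians of -0.10 with R and 0.12 with OF. In U2932, the median of the 8 members that passed was 0.41 with each antibody, against -0.0177 and 0.00631. R and OF were compared with the same isotype libraries.

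With the replicate number, taken to mark the culture, as a block in the fit, more members were called in TMD8. The difference between libraries 1 and 2 correlated at 0.576 between OF and isotype in TMD8, and at 0.176 between R and isotype. The low ribosomal protein share of OF and isotype libraries 2 was not seen in R library 2, at 10% of counts. P-values of this fit measure the spread left after the block. RGS1, RGS2, RGS13, RGS14 and RGS16 were called higher with R, at adjusted p-values of 0.00705, 0.00548, 0.000357, 0.00664 and 0.0434. The same 5 were called higher with OF, at 0.0138, 0.00997, 0.000783, 0.00308 and 0.0751, with RGS19 at 0.0225. The share of all genes called higher grew as well, to 5.04% with R and 5.17% with OF, and 1565 and 1387 genes were called in either direction against 92 and 116 without the block. The fit with the GC content trend removed called RGS1, RGS2, RGS13 and RGS14 with both antibodies. In that fit, 255 and 230 of all 14227 genes were called higher with R and OF, against 57 and 67 with the trend kept.

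**Figure D3:**
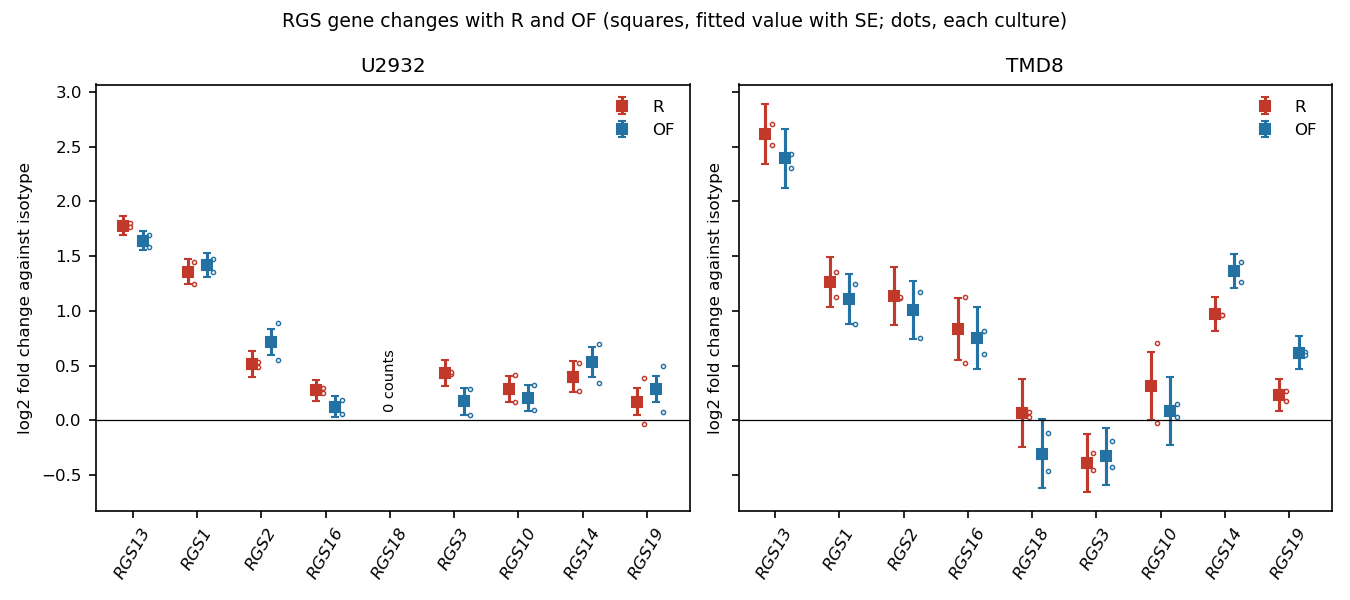
Log2 fold change against isotype for the 9 RGS genes in U2932 (left) and TMD8 (right), with R in red and OF in blue; squares are fitted values with their SE and small circles are the 2 cultures taken apart. RGS13 stands highest in both panels, at 1.78 and 1.64 in U2932 and 2.62 and 2.39 in TMD8, and RGS18 had 0 counts in U2932.

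R and OF were compared with each other to ask whether binding of different CD20 epitopes gave different levels of these genes. None of the members was called between R and OF. In U2932, 1 of 14635 genes, or 0.00683%, was called in this comparison, the log2 difference of the 8 members that passed the filter ran from -0.20 for RGS2 (SE 0.118, adjusted p = 0.910) to 0.26 for RGS3 (SE 0.120, adjusted p = 0.910), and that of RGS13 was 0.14 (SE 0.0868, adjusted p = 0.910). In TMD8, 0 of 14227 genes (0%) were called by edgeR, with 582 at an unadjusted p under 0.05, and 0 by DESeq2, with 403. With the block 0 were called as well, with 2492 at an unadjusted p under 0.05, or 1014 with the block and the GC trend removed. The log2 difference there was -0.39 for RGS14 (SE 0.152, adjusted p = 0.733), -0.39 for RGS19 (SE 0.148, adjusted p = 0.733) and 0.22 for RGS13 (SE 0.258, adjusted p = 0.760). For RGS14 and RGS19 the OF libraries lay above the R libraries in both cultures, with R minus OF at -0.48 and -0.31 for RGS14 and at -0.36 and -0.42 for RGS19 on the log2 scale. With the GC content trend removed, these 2 differences were near 0, at -0.05 and -0.05, and the part of GC content in them was otherwise not tested.

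The lines were compared under the isotype control. The selection of RGS13 named its increase in U2932 and not this comparison. The U2932 isotype libraries are, however, the same ones that the increase was measured against. RGS16 was 14.9-fold higher in U2932 (log2 difference 3.90, SE 0.220, adjusted p = 5.68e-08), RGS1 was 5.76-fold higher (2.53, SE 0.195, adjusted p = 6.78e-07), RGS13 was 4.54-fold higher (2.18, SE 0.210, adjusted p = 4.01e-06) and RGS2 was 3.93-fold higher (1.97, SE 0.239, adjusted p = 2.66e-05). RGS19 was 1.67-fold higher in TMD8 (log2 difference -0.74, SE 0.139, adjusted p = 0.000743). RGS18 was at 6.44 CPM on average in TMD8, at least 48.0-fold above the level that 3 counts in a U2932 isotype library would give, and its 0 counts in U2932 were below that limit of 0.134 CPM. RGS14 was 1.47-fold higher in TMD8 (log2 difference -0.56, SE 0.139, adjusted p = 0.00468), which is under the 1.5-fold limit, and RGS3 and RGS10 differed by 0.12 (SE 0.206, adjusted p = 0.642) and 0.36 (SE 0.243, adjusted p = 0.219). The 4 members called higher in U2932 stood beside 28.1% of all 16187 genes tested, and the 2 called lower beside 28.0%. Without U2932 isotype library 2, RGS19 was under the 1.5-fold limit at -0.57, as it was at -0.47 with the GC trend removed. Without TMD8 isotype library 1, RGS10 was called at 0.78 and RGS14 at -0.62, and without U2932 isotype library 1 RGS14 was called at -0.63.

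**Figure D4:**
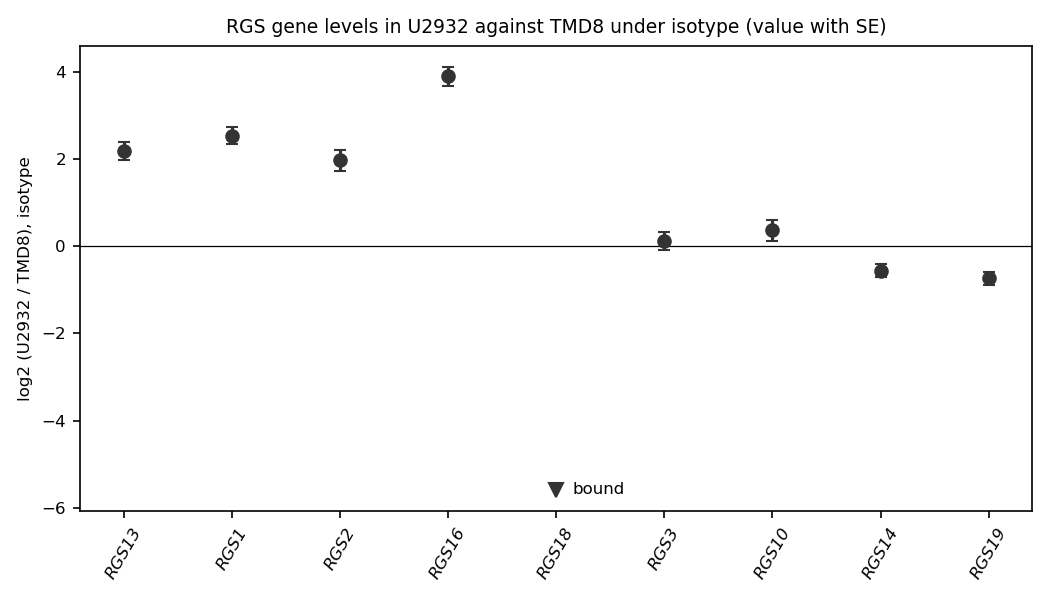
Log2 of the level in U2932 over that in TMD8 under the isotype control for the 9 RGS genes, with the SE of the fit. The triangle for RGS18 is a bound, since it had 0 counts in U2932, and RGS16 stands highest at 3.90.

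Levels of different genes were compared per kb of gene, on the length of the longest protein-coding transcript. Under isotype in U2932, the order was RGS13 at 76.5 and 86.5 CPM per kb, RGS2 at 60.1 and 78.8, RGS16 at 42.7 and 47.9, RGS1 at 30.2 and 34.5, RGS10 at 26.3 and 32.9, RGS19 at 13.9 and 10.9, RGS14 at 3.89 and 3.50, RGS3 at 3.87 and 3.47, and RGS18 at 0. RGS13 and RGS2 overlapped, as did RGS1 and RGS10, and RGS14 and RGS3. In TMD8, the order was RGS10 at 29.1 and 17.3, RGS19 at 19.6 and 21.7, RGS13 at 20.8 and 15.2, RGS2 at 19.4 and 16.1, RGS1 at 5.94 and 5.31, RGS14 at 5.18 and 5.69, RGS3 at 2.7 and 4.03, RGS16 at 3.53 and 2.60, and RGS18 at 3.61 and 2.38. The first 4 overlapped with their neighbours in that order, as did RGS1 with RGS14 and the last 3 with each other. The order depends on the length used, since on the total length of annotated exons RGS16 was first in U2932 at 42.7 and 47.9 and RGS13 was the third at 19.6 and 22.2.

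Genes with the pattern most like that of RGS13 over the 12 libraries, by Pearson's r of log2 CPM among 16186 other genes, were PTDSS1 (r = 0.99), CNOT7, AFMID, TMBIM6 and SGMS1, with r of at least 0.98. Over the 6 U2932 libraries alone, they were PSMD7, CNOT7, HSPA8, EEF1A1 and DNAJA1 among 14634 genes, each with r above 0.99. Of the members, RGS2 had an r of 0.90 and RGS1 of 0.88 with RGS13 over the 12 libraries, and RGS14 of -0.03. Over the 6 U2932 libraries r was 0.86 for RGS2, 0.99 for RGS1 and 0.90 for RGS14. These values are a description: the libraries share 2 lines and 3 antibodies, and the separation between them enters each r.

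The rest of the G-protein cycle was counted from 5 gene lists. Of 21 other RGS-domain genes, 14 passed the filter in U2932, of which 2 rose and 1 fell with R, and 2 rose and 2 fell with OF. Of all genes tested in U2932, 5.19% were called higher and 5.02% lower with R, and 5.90% and 5.21% with OF. In TMD8 these shares were 0.401% and 0.246% with R, and 0.471% and 0.344% with OF, and with the block 5.04% and 5.96% with R, and 5.17% and 4.58% with OF. RGS8 rose by 0.94 on the log2 scale (SE 0.157, adjusted p = 6.19e-05) and RGS9 by 0.87 (SE 0.166, adjusted p = 0.000269) with R, and by 0.71 and 0.67 with OF, while RGS20 fell with both and RGS22 with OF, from 1.92 and 2.10 CPM and from 0.537 and 0.833 CPM with isotype. DESeq2 did not call RGS20 and RGS22. RGS8 and RGS9 are members known chiefly from the nervous system, and RGS8 had 0 counts in TMD8. In TMD8, 12 passed and GRK6, a receptor kinase with an RGS domain, rose by 1.30 with OF (SE 0.196, adjusted p = 0.0935). GRK6 was at 20.7 and 27.5 CPM with isotype, 44.8 and 49.2 CPM with R, and 52.9 and 65.5 CPM with OF. The R libraries thus also lay above the isotype libraries, but GRK6 was not called with R. With R, edgeR called 0 of this list, 4 were at an unadjusted p under 0.05 and DESeq2 called 1. With the block, 2 were called higher and 3 lower with R in TMD8, and 2 higher and 1 lower with OF. The median log2 change of this list was 0.07 and 0.15 in U2932 and -0.10 and 0.12 in TMD8, with R and OF.

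Of 13 G-protein alpha subunits, 7 passed in U2932 and 9 in TMD8, and edgeR with or without the block and DESeq2 called 0 with either antibody in either line. At an unadjusted p under 0.05 there were 3 in U2932 with each antibody, 1 in TMD8 with R and 0 with OF. Of 15 beta and gamma subunits, GNB3 rose in U2932 by 0.63 with R (SE 0.198, adjusted p = 0.0180) and by 0.78 with OF (SE 0.197, adjusted p = 0.00374), and edgeR and DESeq2 called 0 of the 9 that passed in TMD8, with 1 at an unadjusted p under 0.05 with R and 0 with OF. Of 22 effectors and other regulators of the cycle, 15 passed in U2932. GPSM2 and GPSM3, which like RGS14 bind alpha subunits in the GDP form, rose with R by 0.74 (SE 0.103, adjusted p = 5.99e-06) and 0.83 (SE 0.208, adjusted p = 0.00357), and with OF by 0.83 and 0.96, and PLCB3, a phospholipase C, rose with OF by 0.69. In TMD8, 18 passed and edgeR called 0 (with 4 at an unadjusted p under 0.05 with R and 5 with OF), against 2 higher with R and 3 higher with OF under the block and 1 with each antibody by DESeq2. The median log2 change of this list was 0.22 with R and 0.28 with OF in U2932, and -0.10 and 0.20 in TMD8.

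Of 22 B-cell G-protein-coupled receptors, 12 passed in U2932, where GPR183, a receptor for oxysterols that guides B cells, rose by 0.61 with R (SE 0.148, adjusted p = 0.00272) and by 0.59 with OF (SE 0.149, adjusted p = 0.00397), the second of which was called neither with the block nor by DESeq2. In TMD8, 15 passed, and CXCR5, the receptor for CXCL13 that guides B cells into follicles, fell by 1.68 with R (SE 0.201, adjusted p = 0.0697) and by 1.14 with OF (SE 0.198, adjusted p = 0.0966). CXCR5 was at 74.2 and 105 CPM with isotype, 27.1 and 28.6 CPM with R, and 37.8 and 43.1 CPM with OF in TMD8, and at 468 and 421 CPM, 360 and 357 CPM, and 382 and 405 CPM in U2932. The isotype libraries were the highest in both lines, and CXCR5 was not called in U2932. The calls of CXCR5 and GRK6 in TMD8 were also made with the block. Without R library 1 or R library 2 of TMD8, 0 genes at all were called with either antibody, and without OF library 1 or 2, 0 with OF. Under the block, 5 receptors were called higher and 4 lower with R in TMD8, where 5.04% and 5.96% of all genes were, and 3 higher and 2 lower with OF, where 5.17% and 4.58% were.

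Under isotype the lines also differed in these lists, with 2 alpha subunits higher in U2932 and 5 higher in TMD8 of 10 that passed. Of all genes tested, 28.1% were called higher in U2932 and 28.0% lower. In the same order, the counts were 5 and 5 of 14 other RGS-domain genes and 1 and 4 of 9 beta and gamma subunits. They were 3 and 6 of 15 receptors, and 3 and 8 of 19 effectors and other regulators. GNA11 and GNAQ, the closely related alpha subunits of the Gq class, were on opposite sides: GNA11 was at 24.4 and 19.0 CPM in U2932 and at 0 and 0.0355 CPM in TMD8, and GNAQ was at 0.0448 and 0 CPM in U2932 and at 6.86 and 7.53 CPM in TMD8. Of their effectors, PLCB1 was at 28.96 and 34.1 CPM in U2932 and at 0 in TMD8. PREX1, an exchange factor driven by beta and gamma subunits, was at 0 in U2932 and at 192 and 410 CPM in TMD8.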

How the data were processed

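RNA of U2932 and TMD8 cells was sequenced from NEBNext Ultra II libraries, with 2 libraries for each of 6 conditions. Per the submitters' processing notes, Trim Galore 0.6.0, STAR 2.7.0e, DESeq2 1.26.0 and the build GRCh38 were used. The authors deposited raw counts per gene, with no normalization. The annotation release, the strand setting and the treatment of reads that map to several places are not given in the sources used here. Of 58884 Ensembl ids, 58876 had a symbol, 58611 were in GENCODE 29, whose GRCh38 positions and lengths were used, and 27447 had no count.

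Genes were tested with edgeR 4.0.16 under R 4.3.3 (TMM, filterByExpr with at least 10 counts, quasi-likelihood test, Benjamini-Hochberg adjustment over all genes tested). Comparisons within a line used its 6 libraries, and the line comparison used all 12. A fold change is relative to the TMM scaling. The members and the gene lists were chosen with earlier results of these data known. Named genes were the 9 members, list genes called against isotype or between lines (at most 4 per list, largest first), list genes called in TMD8, genes within 1 Mb of RGS13 and the 5 most like it. Of the list genes called between lines, those named were picked after their values were seen. Some markers of the lists are not reported here. Promoters of the 9 members were found in the RefSeq table, and 3 are printed.

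At these depths (15440226 to 27110612 counts) the median SE of a log2 change from R to isotype was 0.124 in U2932 and 0.251 in TMD8, and a count of 0 allows 3 counts, or 0.107 to 0.206 CPM after TMM, for counting error only. By the treatment protocol, each line was split into 2 cultures before treatment, and replicate numbers were taken to mark them. Deviations of same-numbered libraries correlated at -0.044 to 0.0951 in U2932 and at 0.176 to 0.576 in TMD8. Alternatives were DESeq2 1.42.0, other library scaling, no filter, a GC content trend removed (lowess, span 0.3), a replicate block and leaving out libraries. The model fits were tested on simulated data: for R versus isotype in U2932, edgeR called 88 of 100 genes changed 2-fold and 99 of 100 changed 3-fold, and 16 unchanged ones, of 14502 tested. The simulation gave all genes the same spread, changed only genes above a set mean count, and held no replicate or GC effect. It does not cover TMD8, where the median SE was 0.251 against 0.124. Replicates of a group differed by more than counting noise (chi-square per degree of freedom 2.30 to 94.5). Python 3.11.15 and matplotlib 3.10.9 were used for tables and figures.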

Additional observations from a re-analysis of the deposited data

Results flagged for a closer look

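RGS3 stood on opposite sides of the isotype mean in the lines: both R libraries and both OF libraries were above it in U2932 and below it in TMD8. The mean log2 difference from isotype was higher in U2932 than in TMD8 by 0.808 with R and by 0.482 with OF. The difference between the lines was not tested. The change of RGS3 in U2932 with OF was small, at 0.17 (SE 0.121). With the GC trend removed it was 0.02 (SE 0.0976), while that with R was 0.37 (SE 0.0949). In TMD8 the isotype libraries were at 12.4 and 18.5 CPM, and the higher value was from isotype library 2, which stood apart from the other isotype library.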

How the results depend on the processing

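Of 852 alternative values of single members, 731 kept their direction and side of the limit (in the U2932 comparisons with isotype, which have no test for members, moved by less than the replicate SD), 41 gained a call, 20 lost one, 27 in the U2932 comparisons with isotype moved by more than the replicate SD, and 33 changed sign, each of an uncalled member; the cause was not tested. In U2932 the replicate block changed no member's call. Of its members against isotype, RGS2 with R was also called with the GC trend removed, and leaving out 1 library gave 2 to 3 members with R and 3 to 4 with OF. Scaling by total counts alone moved the median log2 change of all genes to -0.116 and -0.0731 in U2932 with R and OF, -0.159 and -0.0746 in TMD8, and 0.109 between lines.

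For R versus isotype in TMD8, members called (all genes called) numbered 4 (702) with DESeq2, 1 (66) with total counts only, 5 (1093) with no filter, 4 (461) with the GC trend removed, 5 (1565) with the replicate block, 5 (1390) with block and GC together, and 0 to 4 (0 to 522) without 1 library. For OF versus isotype they numbered 5 (590), 1 (25), 4 (908), 4 (423), 6 (1387), 5 (1364) and 0 to 2 (0 to 483) in the same order. Leaving out OF and isotype libraries 2 of TMD8 together, chosen after seeing the data, gave 5 (1932) and 6 (1783), and 131 genes for R versus OF, but left 1 residual degree of freedom, with the lone libraries assumed to vary like those of R. R versus OF in TMD8 gave 71 genes with no filter. In U2932 R versus OF gave 2 genes with DESeq2 size factors or with block and GC together, 0 with total counts, 5 with no filter, 3 with the block and 2 to 9 without 1 library.

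RGS18 with R in TMD8 changed sign at -0.0616 with total counts, -0.0857 with the GC trend removed, -0.0881 with block and GC, and -0.233 without both libraries 2, where RGS10 was at -0.0358. For R versus OF in TMD8, RGS1, RGS2 and RGS3 were at -0.0316, -0.0313 and 0.199 with the GC trend removed and at -0.0258, -0.0134 and 0.195 with block and GC. Without both libraries 2, RGS1, RGS2, RGS3, RGS10, RGS13 and RGS16 were at -0.0823, -0.173, 0.118, -0.0574, -0.0349 and -0.203. Without 1 library at a time, values that changed sign ranged, for R versus OF in U2932, from -0.266 to 0.118 for RGS1; for R versus isotype in TMD8, from -0.24 to 0.409 for RGS18 and from -0.027 to 0.755 for RGS10; for OF versus isotype in TMD8, from -0.268 to 0.532 for RGS10 and from -0.594 to 0.0438 for RGS18; for R versus OF in TMD8, from -0.0878 to 0.46 for RGS1, -0.177 to 0.536 for RGS2, -0.278 to 0.136 for RGS3, -0.0624 to 0.588 for RGS10, -0.0388 to 0.554 for RGS13 and -0.209 to 0.451 for RGS16; and between lines, from -0.13 to 0.442 for RGS3.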
